A study of Mus musculus with 8 samples.

Results

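Polycomb group proteins form a pair of chromatin complexes that keep developmental genes silent, and the genes that encode their core subunits were followed here through H3K36me3, a histone mark of transcribed gene bodies. The 10 genes were taken from a list of named subunits. They comprised 5 genes of Polycomb repressive complex 2 (PRC2), Ezh1, Ezh2, Suz12, Eed and Jarid2, and 5 genes of Polycomb repressive complex 1 (PRC1), Rnf2, Ring1, Bmi1, Pcgf3 and Pcgf5. Each gene was represented by its longest protein-coding transcript in GENCODE release M21, and the 10 were set beside 21853 protein-coding genes in all. The list was set by subunit names, but earlier results of these data were known when it was chosen.

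The cells were i4F MEFs, mouse embryonic fibroblasts that carry doxycycline-inducible OCT4, SOX2, KLF4 and MYC (OSKM) and can therefore be driven towards pluripotency by adding the drug. All cultures came from 1 mid-gestation embryo, labelled Clone 1, and were grown for 72 h in medium for induced pluripotent stem cells. The 4 conditions were MEF (no doxycycline), MEF B12 (no doxycycline, 2 µM vitamin B12), OSKM (doxycycline at 1 µg/ml by the labels) and OSKM B12 (both additions), with 1 H3K36me3 library and 1 input library each. With 1 library per condition no difference had a replicate check, no p-value is given, and every interval below covers counting error only. The chromatin came from whole cultures, so a lower level in every cell and a loss in a fraction of the cells cannot be told apart.

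In PRC2, EZH2 or its paralogue EZH1 is the methyltransferase that trimethylates histone H3 at lysine 27, and it needs EED and SUZ12 to be active. PRC1 is built on the ubiquitin ligases RING1 and RNF2 (also called RING1B), which modify histone H2A and pair with 1 of several PCGF proteins that set the variant of the complex, such as BMI1, PCGF3 or PCGF5. H3K36me3 is deposited by SETD2 as it travels with elongating RNA polymerase II, it usually grows denser towards the 3′ end of a gene, and nucleosomes that carry it are poor substrates for PRC2. In fibroblasts BMI1 and EZH2 are best known for holding the Cdkn2a locus silent.

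Depth was between 29046913 and 33399267 H3K36me3 tags per library after removal of duplicates, and between 65473 and 69420 peaks were listed. The peaks covered 92.8 Mb in OSKM and 154 to 166 Mb in the other 3 libraries. The fibroblast label was checked on 8 fibroblast markers, which all held peaks in every library and had between 34.0% and 99.4% of the body covered. No peak lay in the 5 epithelial, 2 endothelial or 1 haematopoietic markers, and of 6 pluripotency markers Zfp42 alone held one, over 2.42% of its body in OSKM. No defining marker of the endothelial, haematopoietic or epithelial lists was therefore detectable by this mark. The level of each gene is given as its H3K36me3 density, the authors' pileup in peaks per 1000000 tags, summed over the gene body and divided by the body's length. A base outside every peak adds 0 to the density, so 0 means that no peak was called and not that no read was present.

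The sequences below place the mark on coding exons of genes whose values are described in the following paragraphs. Each is a window of 200 bases of the reference genome (RefSeq GRCm38.p6, the assembly of mm10) around 1 internal coding exon, written 5′ to 3′ on the strand of the gene, with exon bases in capitals and intron bases in lower case. The first 4 windows lay inside peaks in all 4 libraries. Exon 15 of Ezh1 and exon 14 of Ezh2 are shown together because each is 126 bases long and the pair matched at 88 positions without a gap, or 69.8%.
Ezh1 exon 15 (mm10, chr11:101199221-101199420, minus strand): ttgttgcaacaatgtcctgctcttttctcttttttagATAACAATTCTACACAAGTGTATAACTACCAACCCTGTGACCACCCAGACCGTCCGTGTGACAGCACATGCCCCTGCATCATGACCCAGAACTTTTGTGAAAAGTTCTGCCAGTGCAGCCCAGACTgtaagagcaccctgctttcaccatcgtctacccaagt
Ezh2 exon 14 (mm10, chr6:47541808-47542007, minus strand): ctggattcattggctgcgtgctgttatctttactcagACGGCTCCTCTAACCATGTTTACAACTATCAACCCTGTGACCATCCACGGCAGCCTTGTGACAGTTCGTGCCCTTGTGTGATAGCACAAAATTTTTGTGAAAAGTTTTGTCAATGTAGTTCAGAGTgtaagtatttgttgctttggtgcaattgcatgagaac
Suz12 exon 13 (mm10, chr11:80025776-80025975, plus strand): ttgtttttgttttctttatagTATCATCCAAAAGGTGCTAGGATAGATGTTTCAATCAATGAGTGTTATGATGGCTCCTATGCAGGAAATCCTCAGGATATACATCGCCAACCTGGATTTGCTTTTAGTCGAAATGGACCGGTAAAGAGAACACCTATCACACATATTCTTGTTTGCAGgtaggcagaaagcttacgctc
Pcgf3 exon 9 (mm10, chr5:108495803-108496002, plus strand): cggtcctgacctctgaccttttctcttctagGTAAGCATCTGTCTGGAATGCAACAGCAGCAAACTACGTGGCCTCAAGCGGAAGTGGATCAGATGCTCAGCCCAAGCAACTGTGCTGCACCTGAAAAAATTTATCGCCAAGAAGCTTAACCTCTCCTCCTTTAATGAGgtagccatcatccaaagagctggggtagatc

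The next 3 windows lay inside peaks in MEF, MEF B12 and OSKM B12 and outside them in OSKM. They come from Ezh2, Eed and Bmi1, and they show the coding sequence over which the mark was no longer called with OSKM alone.
Ezh2 exon 4 (mm10, chr6:47558136-47558335, minus strand): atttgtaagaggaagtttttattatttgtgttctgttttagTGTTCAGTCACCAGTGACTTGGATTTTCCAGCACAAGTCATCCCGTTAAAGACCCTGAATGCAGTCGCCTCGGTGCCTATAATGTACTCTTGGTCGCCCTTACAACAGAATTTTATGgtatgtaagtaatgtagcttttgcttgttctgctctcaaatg
Eed exon 9 (mm10, chr7:89962209-89962408, minus strand): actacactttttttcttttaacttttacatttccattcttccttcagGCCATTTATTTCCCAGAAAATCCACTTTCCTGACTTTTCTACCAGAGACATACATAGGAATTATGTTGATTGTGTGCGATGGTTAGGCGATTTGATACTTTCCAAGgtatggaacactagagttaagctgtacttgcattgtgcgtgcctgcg
Bmi1 exon 9 (mm10, chr2:18683926-18684125, plus strand): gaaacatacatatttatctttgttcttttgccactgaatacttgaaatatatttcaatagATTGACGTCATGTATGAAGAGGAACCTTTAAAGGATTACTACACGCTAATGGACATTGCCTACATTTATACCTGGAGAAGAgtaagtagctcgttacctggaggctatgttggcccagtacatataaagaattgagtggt
In each of these 7 windows the exon was preceded by ag and followed by gt, the usual borders of an intron. Their GC content ran from 36% in Bmi1 to 49% in Pcgf3.

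All 10 genes held a peak in at least 1 library, but they differed widely in how much of the body was covered. Of the 10, 8 counted as marked, meaning at least 4 exons and at least 10% of the body covered in at least 1 library, as did 8766 of the 16332 genes with at least 4 exons. Jarid2, which reached 9.76% in MEF B12, and Pcgf5, which reached 1.63% in OSKM B12, did not. The peaks that touched the 10 genes numbered 48 in MEF and 47 in MEF B12, against 63 in OSKM and 50 in OSKM B12. Their bases within the bodies summed to 153 kb, 166 kb, 85.5 kb and 161 kb. Over the 10 genes together, OSKM thus had the most peaks and the fewest covered bases. The PRC2 genes were touched by 48 peaks in OSKM, against 34 to 38 elsewhere. For the PRC1 genes the highest count was 16, from OSKM B12, ahead of OSKM at 15, MEF at 13 and MEF B12 at 9. Genome-wide the order differed, since the OSKM list was the shortest, at 65473 peaks.

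**Figure D1:**
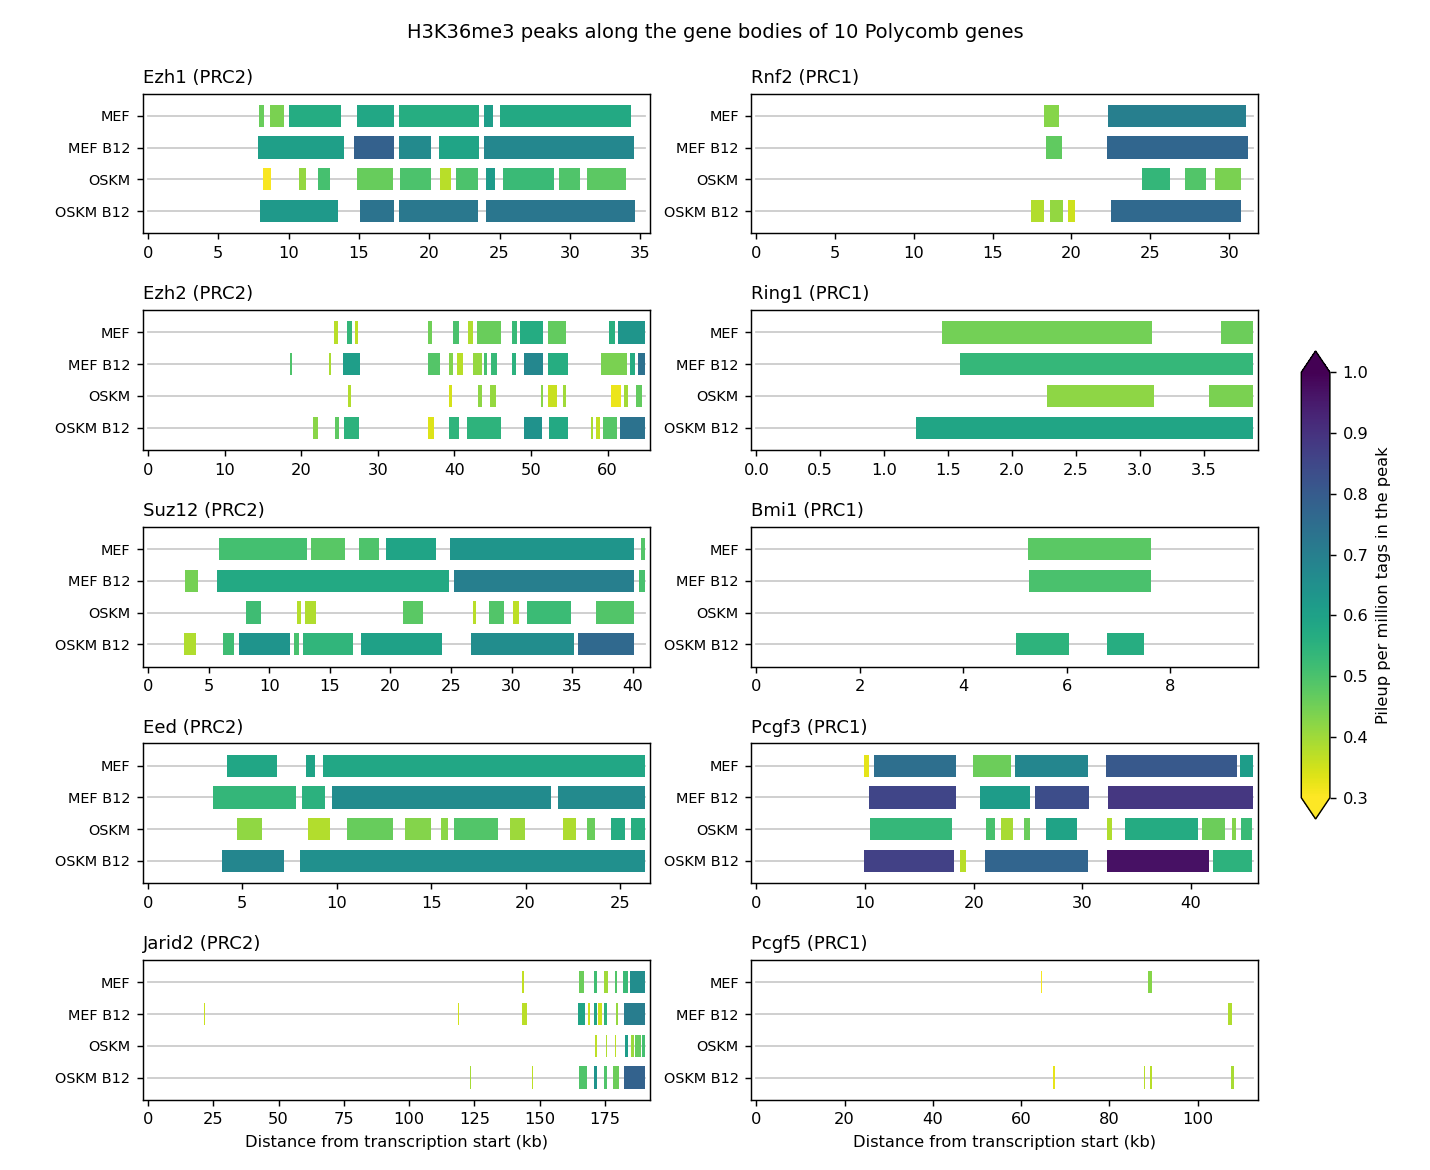
Each panel shows the body of 1 gene from transcription start to end (x axis, kb; each panel has its own scale) with 1 row per library, and each bar is a peak coloured by its pileup per 1000000 tags. The bars stop short of the start in all 10 genes, are broken into more pieces in OSKM than in MEF for Ezh1, Eed, Suz12 and Pcgf3, and are missing from Bmi1 and Pcgf5 in OSKM.

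The methyltransferase genes of PRC2 differed in how much of the body carried the mark. Ezh1 (chr11:101191115-101226463, minus strand, 21 exons) was covered over 65.7% of its body in MEF and 70.3% in MEF B12, against 49.5% in OSKM and 68.5% in OSKM B12. Its first peak began between 7.79 and 8.20 kb from the start in all 4 libraries, at 22.0% to 23.2% of the body. Ezh2 (chr6:47530139-47595030, minus strand, 20 exons) was covered over 26.2%, 29.0%, 10.1% and 31.9% in the same order, so that OSKM was the lowest library for both genes. Most of the signal of Ezh2 lay in the 50% of the body nearest its end, which was covered over 47.8% in MEF and 19.1% in OSKM, against 4.50% and 1.13% in the 50% nearest its start. The last peak of Ezh2 ran on past its end by 15.4 kb in MEF, 16.6 kb in MEF B12 and 17.6 kb in OSKM B12, into Cul1, a cullin gene that converges on it from the opposite strand. In OSKM the last peak was 745 bases long and stopped 0.425 kb before the end of Ezh2. Where a peak spans both genes, its single pileup value cannot be divided between them.

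The other core genes of PRC2 were covered over most of the body outside OSKM. Suz12 (chr11:79993106-80034123, plus strand, 16 exons), which encodes the subunit that holds PRC2 together, was covered over 76.8% in MEF and 86.8% in MEF B12, against 31.5% in OSKM and 74.4% in OSKM B12. The loss was steeper near its start. The 50% of Suz12 nearest the start was covered over 61.7% in MEF and 11.4% in OSKM, and the 50% nearest the end over 91.9% and 51.5%. A lincRNA gene on the opposite strand, Gm26563, overlaps 30.5% of the Suz12 body, and the peaks do not distinguish strands. Eed (chr7:89954654-89980983, minus strand, 12 exons), the subunit that binds trimethylated lysine 27, was covered over 76.6%, 83.0%, 47.3% and 81.9%. Its mark was carried by 3 peaks in MEF and 4 in MEF B12, against 11 in OSKM and 2 in OSKM B12, and the longest shrank from 17.7 kb in MEF to 2.47 kb in OSKM before measuring 19.7 kb in OSKM B12.

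Jarid2, an accessory subunit that helps to recruit PRC2 to its targets, is by far the longest of the genes (chr13:44731271-44921643, plus strand, 190 kb, 18 exons) and carried the mark near its 3′ end. Coverage was 7.50% in MEF and 9.76% in MEF B12, against 3.55% in OSKM and 8.52% in OSKM B12. The first peak began 171 kb from the start in OSKM and 143 kb in MEF. The 50% of the body nearest the start held no peak base in MEF, OSKM and OSKM B12 and 0.408% of its bases in MEF B12. The last peak reached past the end of Jarid2 and touched Dtnbp1, its convergent neighbour, in all 4 libraries.

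The ubiquitin ligase genes of PRC1 also carried the mark in their 3′ parts. Rnf2 (chr1:151469406-151500955, minus strand, 7 exons) was covered over 30.7% in MEF and 31.5% in MEF B12, against 15.2% in OSKM and 32.8% in OSKM B12, and no base of the 50% nearest its start lay in a peak in any library. One peak of 8.71 kb ran from exon 2 to exon 7 in MEF. In OSKM 3 peaks of 1.37 to 1.77 kb stood in its place. Ring1 (chr17:34020792-34024680, minus strand, 7 exons) is the shortest body, at 3.89 kb, and was covered over 48.8%, 59.0%, 30.4% and 68.0%. Its widest peak was that of OSKM B12, which ran over 2.66 kb and touched 5 exons.

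The PCGF genes differed widely in how much of the body was covered. Pcgf3 (chr5:108461232-108506976, plus strand, 11 exons) was covered over 68.7% in MEF and 67.4% in MEF B12, against 51.2% in OSKM and 68.4% in OSKM B12, while peaks touched 10 of 11 exons in every library. Bmi1 (chr2:18677018-18686629, plus strand, 10 exons) was covered over 24.9%, 24.5%, 0% and 18.0%. Its single peak in MEF, chr2:18682267-18684656, started in exon 3, ended in exon 10 and had a fold enrichment over input of 3.15. This was above the fold enrichment of 77.9% of the peaks in the MEF list. MEF B12 had a peak of similar extent, OSKM B12 had 2 shorter ones, and OSKM had none. Absence of any peak in OSKM was seen for 304 marked genes, or 3.47%. Pcgf5 (chr19:36348309-36460970, plus strand, 9 exons) was covered over 1.10%, 0.730%, 0% and 1.63%, by 2, 1, 0 and 4 peaks of at most 0.857 kb. The one peak of MEF B12 overlapped none of the 2 peaks of MEF, so Pcgf5 was close to the limit of what this depth could call.

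The genes were ordered by density in each library. The order in MEF depended on which peaks were kept, since 8 of the 10 genes took another place when only peaks with −log10 q of at least 5 were counted. In MEF Pcgf3 was highest at 0.489 (95% counting interval 0.470 to 0.508), followed by Eed at 0.448, Suz12 at 0.443 and Ezh1 at 0.373. Ring1 at 0.219 and Rnf2 at 0.207 came next, then Ezh2 at 0.136, Bmi1 at 0.119, Jarid2 at 0.0408 and Pcgf5 at 0.00430. In this order Eed and Suz12, Ring1 and Rnf2, and Ezh2 and Bmi1 were neighbours that did not differ beyond counting error. For comparison, the median density of all marked genes in MEF was 0.286, which lay between Ezh1 and Ring1. In OSKM Ezh1, at 0.240, stood above Eed at 0.215 and Suz12 at 0.152, and these 3 genes differed beyond counting error.

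**Figure D2:**
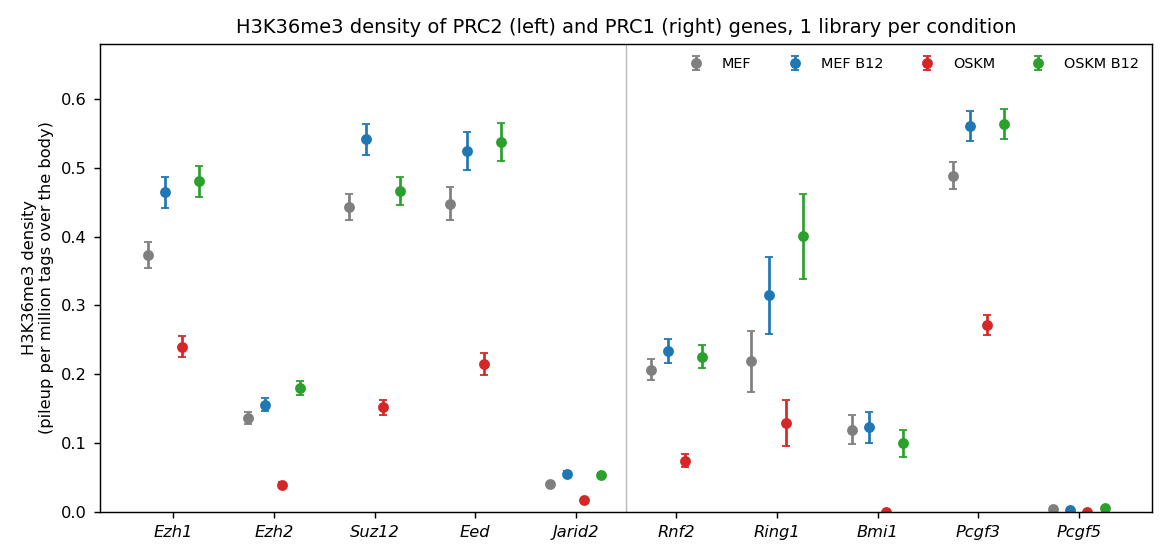
H3K36me3 density (y axis, pileup in peaks per 1000000 tags over the gene body) is plotted for each gene and library, with 1 library per condition and bars for 95% counting intervals. The OSKM point is the lowest of the 4 for every gene, and it is drawn at 0 without an interval where no peak was called (Bmi1 and Pcgf5).

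The comparison of MEF with OSKM asks how the mark on these genes differed after 72 h of reprogramming factors. Density passed a fall of 1.5-fold in 6 of the 10 genes, Ezh2, Suz12, Eed, Rnf2, Bmi1 and Pcgf3, beside 56.4% of the 10788 genes with at least 4 exons and a peak in any library. All 6 were marked, which made 6 of 8 marked members beside 68.7% of all marked genes. The share of Polycomb genes that fell was thus near the background. The call of Eed ended with peaks at most 1 kb apart merged, at a log2 change of −0.54, and those of Eed and Bmi1 ended with peaks of −log10 q of at least 5, where neither gene kept a peak in MEF or OSKM. The fold was judged on log2 of density plus 0.05, which understates changes of genes with little signal. On that scale the median of the 10 genes was −0.83 and that of all marked genes −0.71.

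Suz12 had a density of 0.443 in MEF and 0.542 in MEF B12, against 0.152 in OSKM and 0.466 in OSKM B12. Its OSKM level was 0.343 times its MEF level (95% counting interval 0.316 to 0.374), and 6.05% of marked genes had a lower log2 change. Ezh2 read 0.136, 0.156, 0.0388 and 0.180 in the same order, and its OSKM level was 0.285 times that of MEF (0.250 to 0.325). The fall in Ezh2 was made up of fewer covered bases and of a lower mean pileup inside peaks, which was 0.520 per 1000000 tags in MEF and 0.384 in OSKM. Rnf2 read 0.207, 0.234, 0.0746 and 0.226, with OSKM at 0.361 times MEF (0.314 to 0.414). Eed read 0.448, 0.525, 0.215 and 0.537, and Pcgf3 read 0.489, 0.561, 0.272 and 0.564, with OSKM at 0.480 and 0.556 times MEF. Bmi1 read 0.119 in MEF and had no peak in OSKM, so no fold is given for it. Its log2 value of −1.76 depends on the 0.05 that was added.

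The remaining 4 genes did not pass the fold with 0.05 added. With 0.01 added, Ezh1 (−0.61), Ring1 (−0.72) and Jarid2 (−0.92) passed it as well, which made 9 of 10 genes beside 81.9% of marked genes. Ezh1 had a density of 0.373 in MEF and 0.240 in OSKM, a log2 change of −0.54 (−0.64 to −0.45), and 74.8% of marked genes had a lower log2 change. Ring1 had 0.219 in MEF and 0.129 in OSKM, with a log2 change of −0.58 (−0.94 to −0.23) that was the least certain of the 10, since only 58.3 tags were estimated to lie in its OSKM peaks. Jarid2 had 0.0408 and 0.0168. The ratio was 0.412 (0.365 to 0.465), but at this level the added 0.05 brought the log2 change to −0.44. Pcgf5 had 0.00430 in MEF and no peak in OSKM. In all 8 genes with a peak in every library the counting interval of OSKM lay below those of the other 3 libraries, as it did in 92.4% of the 9239 such genes with at least 4 exons.

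These directions did not hold under every scaling, and the peaks covered less of the genome in OSKM. With pileup not divided by tags the median of the 10 genes was −0.80, and 6 genes passed the fold beside 65.8% of marked genes. With fold enrichment minus 1 it was −1.03, and 9 genes passed beside 85.2%. When pileup was divided instead by the summed signal of all peaks in the library, the median of all marked genes from MEF to OSKM shifted from −0.71 to 0.04 and the share of marked genes that fell became 11.0%. Relative to the rest of the marked genome by this measure, Ezh1 stood at 0.32, Ring1 at 0.20 and Pcgf3 at 0.14, which were reversed in sign, while Ezh2 stood at −0.54, Suz12 at −0.48, Rnf2 at −0.37 and Bmi1 at −1.74. Of the 10 genes only Bmi1 passed the fold downward on this scale.

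**Figure D3:**
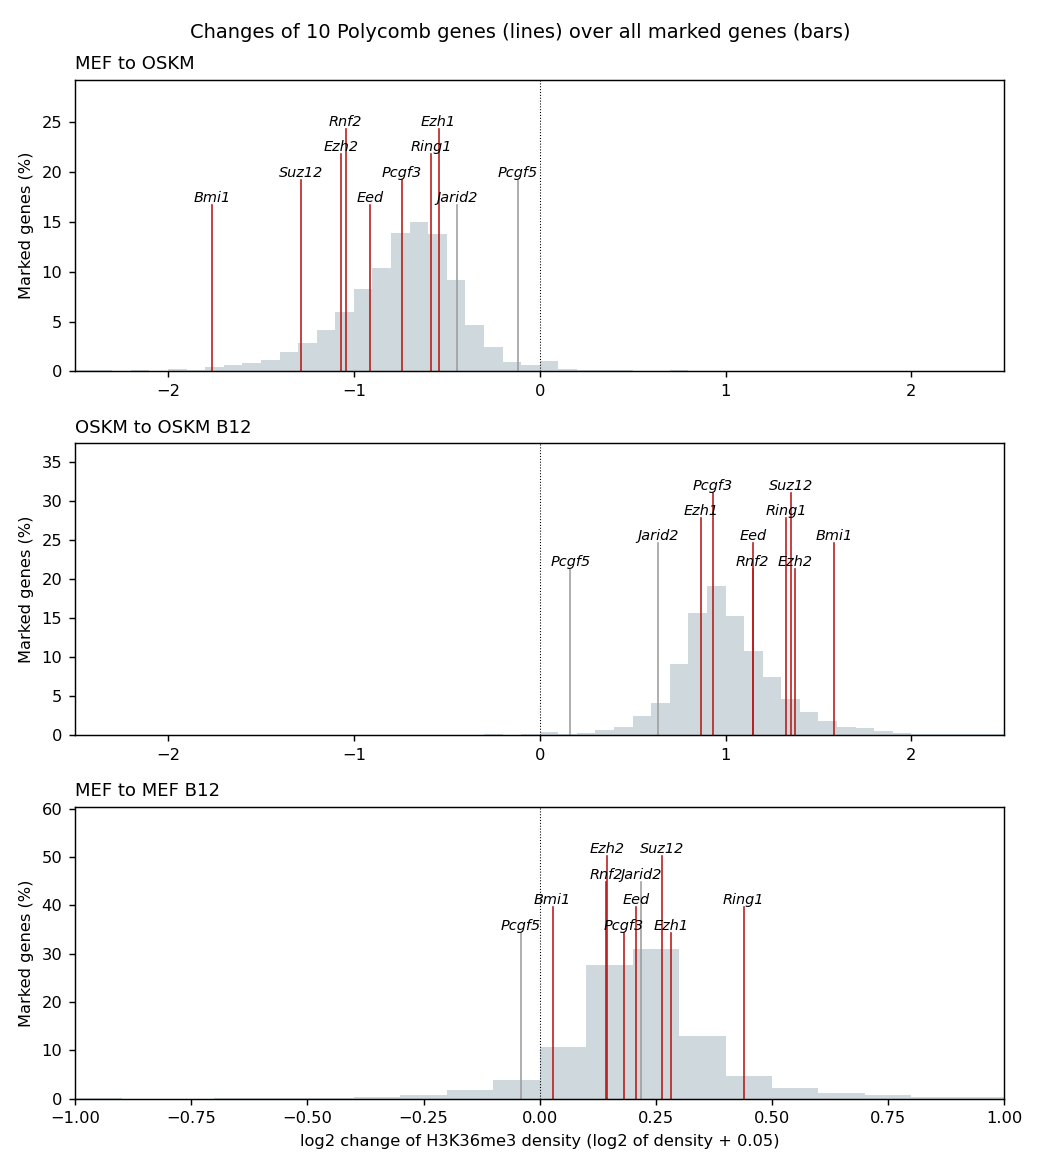
Grey bars show the distribution of log2 density changes over 8766 marked genes (y axis, percent of genes per bin of 0.1), and lines show the 10 Polycomb genes, red for the 8 marked ones and grey for Jarid2 and Pcgf5. From MEF to OSKM, Bmi1, Suz12, Ezh2 and Rnf2 sit in the lower part of the distribution and Ezh1 and Ring1 in the upper part; 5, 21 and 75 marked genes lie beyond the x axes of the top, middle and bottom panels.

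The comparison of OSKM with OSKM B12 asks how vitamin B12 during reprogramming differed from reprogramming alone. Density rose at least 1.5-fold in 9 of the 10 genes, all but Pcgf5, beside 78.8% of genes with a peak. Among marked genes it rose in 8 of 8 members and in 95.2% of all. The median log2 change was 1.15 over the 10 genes and 0.98 over all marked genes. The same OSKM library enters this comparison and the one before it, so the pair of changes are not independent of each other. Bmi1 and Pcgf5, which had no peak in OSKM, were the lowest and highest of the 10 genes from MEF to OSKM and the reverse from OSKM to OSKM B12. Leaving them out therefore could not move the medians, −0.83 and 1.15 over the 8 other genes.

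Ezh2 had the widest measured fold of the 10 genes. Its OSKM B12 density was 4.64 times that of OSKM (4.09 to 5.28). Jarid2 stood at 3.21 times, Ring1 at 3.09 times (2.29 to 4.18), Suz12 at 3.07 times (2.82 to 3.34) and Rnf2 at 3.02 times. Eed stood at 2.50 times, Pcgf3 at 2.08 times and Ezh1 at 2.00 times. Bmi1, with a density of 0.0998 in OSKM B12 with a lower counting limit of 0.0800, had peaks again in the same part of the body, chr2:18682041-18683071 and chr2:18683807-18684509. Pcgf5 had 4 peaks in OSKM B12 and a density of 0.00607, a log2 change of 0.17. On the scale of summed peak signal the changes of Ezh1 and Pcgf3 were reversed, to −0.27 and −0.22, the median of the 10 genes was 0.20 beside −0.02 over marked genes, and 2 genes passed the fold beside 10.6% of marked genes.

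Set against MEF, 6 of the 10 genes in OSKM B12 had a ratio above 1 beyond counting error, as did 74.7% of the genes with at least 4 exons and a peak in both libraries. The median log2 change from MEF to OSKM B12 was 0.19 over the 10 genes and 0.26 over marked genes. Suz12 was 1.05 times its MEF level (0.989 to 1.12) and Rnf2 1.09 times (0.984 to 1.21), and both intervals include 1. Pcgf5 at 1.41 times (0.991 to 2.02) also included 1. Ezh1 at 1.29 times (1.20 to 1.38), Ezh2 at 1.32 times (1.22 to 1.44), Jarid2 at 1.32 times (1.21 to 1.45), Eed at 1.20 times (1.11 to 1.29) and Pcgf3 at 1.15 times (1.09 to 1.22) were above it. Ring1 was the highest at 1.83 times (1.42 to 2.36), with 96.7% of marked genes at a lower log2 change, although its body holds few tags. Bmi1 was the lowest at 0.835 times (0.642 to 1.09), an interval that includes 1, with 2.60% of marked genes lower.

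From MEF to MEF B12, the comparison of vitamin B12 without doxycycline, no gene of the 10 rose 1.5-fold, beside 3.13% of genes with a peak and 3.45% of marked genes. The median log2 change was 0.19 over the 10 genes and 0.21 over marked genes. Ring1 had the highest value, 0.44 (0.12 to 0.76), from a density of 0.219 in MEF to 0.315 in MEF B12. Ratios were above 1 beyond counting error in 8 of the 10 genes, beside 71.7% of the genes with a peak in both libraries. The log2 changes of the other 7 of these 8 ran from 0.14 in Rnf2 and Ezh2 to 0.28 in Ezh1. Bmi1 at 0.03 (−0.23 to 0.28) and Pcgf5, whose ratio was 0.650 (0.418 to 1.01), were the exceptions. With the summed peak signal as the scale the median of the 10 genes became −0.04. Between the cultures with vitamin B12, the median log2 change from MEF B12 to OSKM B12 was 0.02 over the 10 genes and 0.05 over marked genes, and Suz12 had a value of −0.20 (−0.28 to −0.12) while Ring1 had 0.30 (0.01 to 0.60).

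Ratios between paralogues within a library do not depend on how libraries are scaled, but they do depend on which bases were in peaks in that library. The density of Ezh1 was 2.74 times that of Ezh2 in MEF (2.53 to 2.97), 2.98 times in MEF B12 (2.76 to 3.22), 6.19 times in OSKM (5.43 to 7.05) and 2.66 times in OSKM B12 (2.47 to 2.87). The interval of OSKM lay above the other 3, which overlapped one another. How often the ratio of other gene pairs differed as much was not counted. Over the bases of each gene that were in peaks in all 4 libraries, 16712 in Ezh1 and 4953 in Ezh2, the ratio of mean pileup was 1.10, 1.23, 1.25 and 1.20. Each base took the mean pileup of its whole peak, so these ratios also draw on peak bases outside the shared ones. The shared bases leave out by definition every base without a peak in OSKM, so a smaller shift on them was partly set in advance. Over the whole body, Ezh1 kept 72.7% of its MEF peak bases in OSKM and Ezh2 33.4%.

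The density of Ring1 was 1.06 times that of Rnf2 in MEF (0.854 to 1.31) and 1.35 times in MEF B12 (1.11 to 1.63). It was 1.73 times in OSKM (1.31 to 2.30) and 1.77 times in OSKM B12 (1.49 to 2.11). The interval of MEF B12 overlapped those of the other libraries, and OSKM and OSKM B12 were alike within counting error here. On shared bases the ratio stayed under 1 in all 4 libraries, at 0.642, 0.691, 0.865 and 0.772. The whole-body measure also counts uncovered bases of both genes, such as the 5′ part of Rnf2, and in MEF its interval included 1. Pcgf3 was 114 times as dense as Pcgf5 in MEF (86.9 to 149), 201 times in MEF B12 and 92.9 times in OSKM B12. Bmi1 was 27.8, 44.0 and 16.4 times as dense as Pcgf5 in those libraries.

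**Figure D4:**
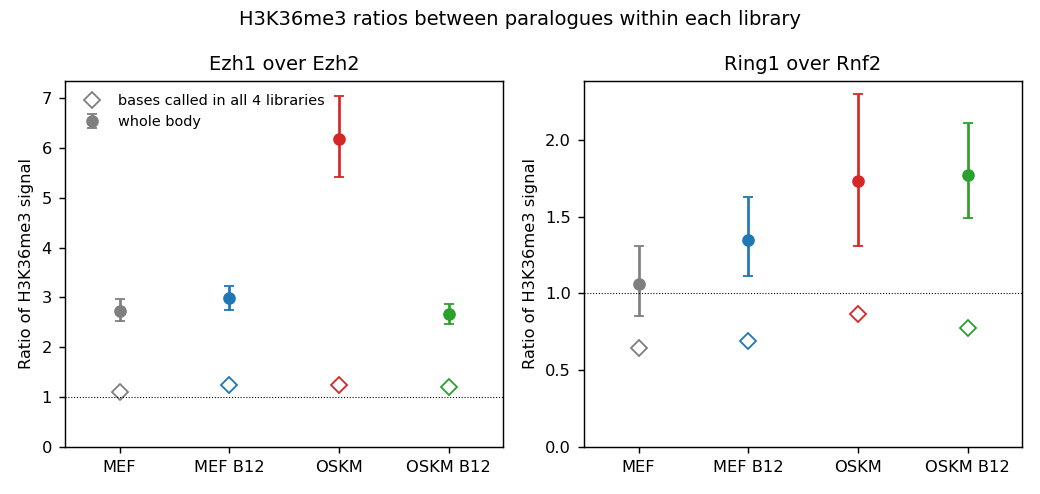
Ratios of H3K36me3 signal between paralogues (y axis, linear) are plotted for each library. Filled points show density over the whole body with 95% counting intervals. Open diamonds show mean pileup over bases in peaks in all 4 libraries, where each base takes the mean of its whole peak. Ezh1 over Ezh2 reaches 6.19 in OSKM over the whole body while the diamonds stay between 1.10 and 1.25. Ring1 over Rnf2 lies above 1 over the whole body, with an interval that includes 1 in MEF, and below 1 on shared bases.

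Each base of the 10 bodies was then sorted by the libraries whose peaks held it. Summed over the 10 genes, 54.0% of the bases in MEF peaks were in a peak in OSKM. The value at hand for marked genes is another measure, the median of the shares of single genes, and was 59.0% (quartiles 37.5% and 78.1%). Ezh1 and Pcgf3 kept 72.7% each, Eed 59.5%, Ring1 56.6%, Rnf2 49.5%, Jarid2 47.3%, Suz12 39.7% and Ezh2 33.4%, while Bmi1 and Pcgf5 kept none. Of the bases lost, again summed over the 10 genes, 84.0% were in a peak in OSKM B12, while the median of single marked genes was 81.9%. Eed and Ring1 had every lost base in a peak of OSKM B12, and Bmi1 had 63.1%. Bases in a peak in OSKM alone were rare, with 29 in Ezh2, 4 in Suz12 and none in the other 8 genes.

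**Figure D5:**
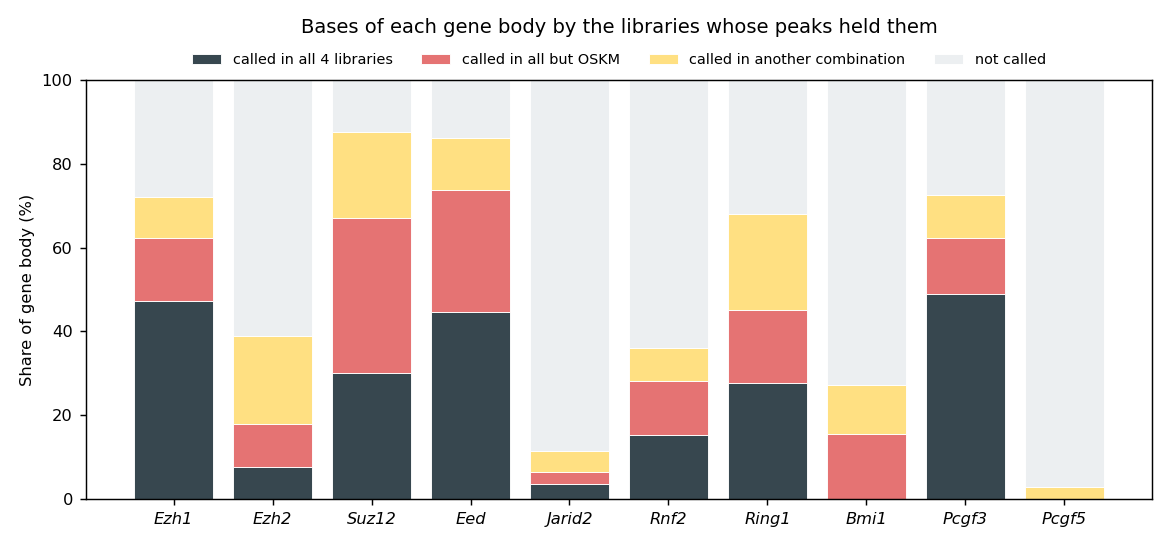
Stacked bars give the share of each gene body (y axis, percent) in peaks in all 4 libraries, in all but OSKM, in another combination, or in none. The share held in all but OSKM is widest in Suz12 (37.1%) and Eed (29.2%), the share held in all 4 is widest in Pcgf3 (48.9%) and Ezh1 (47.3%), and Bmi1 and Pcgf5 have no base held in all 4.

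Over bases in peaks in all 4 libraries, the pileup of the peaks that held them was lower in OSKM as well. Each peak has a single mean pileup for its whole length, so these values also draw on peak bases outside the shared ones. Over such bases the mean pileup per 1000000 tags of OSKM was between 0.699 times (Rnf2) and 0.942 times (Ring1) that of MEF in the 8 genes that had any, beside a median of 0.782 over marked genes. The same quantity for OSKM B12 over OSKM was between 1.37 times (Suz12) and 1.58 times (Pcgf3), beside 1.49. Rnf2 had the highest level outside OSKM after Pcgf3, with 0.701 in MEF and 0.772 in MEF B12, against 0.490 in OSKM and 0.763 in OSKM B12.

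The bases that kept and lost the mark differed in composition within some genes. In Ezh2 the bases held in all 4 libraries had a GC content of 44.4%, those held in all but OSKM 40.3% and those in no peak 39.5%, beside medians per marked gene of 47.5%, 44.5% and 46.5%. Masked repeats made up 12.7%, 16.2% and 35.4% of the same Ezh2 bases, and exons 11.5%, 19.0% and 1.29%. In Rnf2 exons made up 39.1% of the bases held in all 4 and 4.65% of those held in all but OSKM. The medians per marked gene for exons also fell, from 21.1% to 11.0%. Suz12 showed no such contrast in GC, at 38.8% and 38.7%, while repeats were 36.2% of the former and 47.2% of the latter. The medians per marked gene for repeats were 16.4% and 22.9%, a contrast in the same direction. Repeats reduce unique alignment, and their part in the calls was not tested.

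None of the 10 genes had a peak over its promoter. The RefSeq promoter table (GRCm38), with 250 bases before and 50 after each start, matched all 10 genes through 13 windows, 2 of them for Jarid2 and 3 for Pcgf5. No base of these windows lay in a peak in any library. How many of all promoters held a peak was not counted, so the absence cannot be called particular to these genes. Of the 13 windows, 12 were above the median of all 32851 promoters for GC content, 52.7%, and for observed over expected CpG, 0.384. The exception was 1 of the Pcgf5 windows, at 48.3% and 0.286.

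Genes of other Polycomb subunits and of opposing enzymes moved in the same direction for the most part. Of 31 such genes, 25 were marked, and 17 of the 25 fell at least 1.5-fold from MEF to OSKM, beside 68.7% of all marked genes. Their median log2 change was −0.71, the same value as for all marked genes. The count was 5 of 6 for PRC2 accessory genes, 8 of 14 for other PRC1 genes and 4 of 5 for genes that oppose the complexes, such as the H3K27 demethylase gene Kdm6a. From OSKM to OSKM B12, 24 of 25 rose, beside 95.2% of all marked genes, and from MEF to MEF B12 none did, beside 3.45%. The lowest changes from MEF to OSKM belonged to Mtf2, a PRC2 accessory gene with a density of 0.230 in MEF and 0.0554 in OSKM (log2 change −1.41), and Rbbp7, which encodes a histone chaperone of PRC2 (0.258 and 0.0694, −1.37). The highest belonged to the PRC1 chromobox genes Cbx8 (0.102 and 0.101, −0.01) and Cbx2 (0.281 and 0.252, −0.13). Cbx7 and Scml2 had no peak in any library. Epop, a PRC2 accessory gene with fewer than 4 exons, was named after its values were seen because its single peak was in OSKM, over 12.4% of its body.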

How the data were processed

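H3K36me3 was measured by chromatin immunoprecipitation and sequencing in MEF, MEF B12, OSKM and OSKM B12, with 1 library and 1 input per condition, grouped by the titles in the labels. One protocol label spells the antibody target H3K3me3 where the sample labels give H3K36m3. The doxycycline dose is 1 µg/ml in the labels and differs in unit in the study's methods.

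Reads were aligned by the authors with Bowtie 0.12.9 to the mm10 build, duplicates were removed and broad peaks were called with MACS2 2.2.6 on each library against its input (q-value cut-offs 0.05 and 0.1). For each peak the authors deposited the pileup, a signal that gives how many extended fragments lay over its bases on average, the fold enrichment, a ratio to the local input, and the −log10 p-value and q-value of the caller.

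The 10 genes and the lists of other Polycomb genes and of markers were chosen with earlier results of these data known. All 10 genes were named. Of the other Polycomb genes, those with the 2 lowest and 2 highest changes from MEF to OSKM among the marked ones and those with no peak were named. Overlap was counted in bases, with at least 1 shared base for a peak to touch a gene. Pileup was divided by the tags of the library, in units of 1000000, and log2 changes used density plus 0.05. Counting intervals took as n the tags estimated from pileup, bases and fragment length, and do not cover differences between cultures or immunoprecipitations, nor the placing of peak borders. Python 3.11, numpy 2.4.6 and pysam 0.24.0 were used. Interval sums were tested on simulated data, where 0 of 200 random cases differed from a base-by-base count. Alternatives changed the peaks kept, the joining of peaks, the scaling, the part of the gene body, the bases compared and the added constant. Reads outside peaks and the authors' RNA sequencing were not analysed here, and protein sequences were not used here.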

Additional observations from a re-analysis of the deposited data

Results flagged for a closer look

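Pcgf5 was the one gene of the 10 whose H3K36me3 density differed in direction between the comparisons that add vitamin B12. The log2 change was −0.0406 from MEF to MEF B12, where density went from 0.00430 to 0.00279, and 0.17 from OSKM to OSKM B12, where no peak was called in OSKM and density was 0.00607 in OSKM B12. The difference between these changes was not tested, since each condition had 1 library. Between 31.4 and 69.4 tags were estimated to lie in the Pcgf5 peaks of the 3 libraries that had any.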

How the results depend on the processing

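With pileup divided by the summed peak signal, the median log2 changes of the 10 genes were −0.12 from MEF to OSKM, 0.20 from OSKM to OSKM B12 and −0.0380 (reversed) from MEF to MEF B12, and 1 gene fell and 2 rose past the fold in the first and second comparison, beside 11.0% and 10.6% of marked genes. This scaling reversed Ezh1 (0.32), Ring1 (0.20) and Pcgf3 (0.14) from MEF to OSKM, Ezh1 (−0.27) and Pcgf3 (−0.22) from OSKM to OSKM B12, and Ezh2 (−0.0475), Eed (−0.0285), Rnf2 (−0.0672), Bmi1 (−0.15) and Pcgf3 (−0.0560) from MEF to MEF B12. Pileup not divided by tags gave medians of 1.01 from OSKM to OSKM B12 and 0.0432 from MEF to MEF B12 and reversed Bmi1 in the latter (−0.0891). Fold enrichment minus 1 gave medians of −1.03 (9 genes past the fold, beside 85.2% of marked genes) and 1.39 for the first and second comparison, and from MEF to MEF B12 it had 1 gene past the fold beside 10.5% of marked genes and Bmi1 reversed (−0.11). Peaks with −log10 q of at least 5 gave a median of −0.90 from MEF to OSKM, with 5 genes past the fold beside 60.4% of marked genes. The same peaks gave medians of 2.51 from OSKM to OSKM B12 and 0.0705 from MEF to MEF B12. In the latter, 2 genes rose beside 18.0% of marked genes, and Ezh2 (−0.50) and Suz12 (−0.18) were reversed. For MEF to OSKM and for OSKM to OSKM B12 in turn, the medians were −0.62 and 0.90 with peaks at most 1 kb apart merged, −0.93 and 1.03 over the 50% of the body nearest the end, −0.97 and 1.38 with 0.01 added (9 and 10 genes past the fold, beside 81.9% and 98.1% of marked genes), and −0.52 and 0.65 with 0.2 added (3 and 7 genes, beside 21.6% and 63.6%). Over bases in peaks in all 4 libraries they were −0.32 and 0.53, with 0 genes lower and 3 higher by the fold of 8 that had such bases, beside 2.85% and 39.1% of marked genes. Over the 50% nearest the end, 1 gene rose from MEF to MEF B12, beside 5.30% of marked genes. The cause of these shifts was not tested. No alternative other than the summed peak signal reversed a gene from MEF to OSKM or from OSKM to OSKM B12. Of 384 values of single genes under the alternatives, 212 stayed within counting error, 150 kept their sign but moved by more than that, 8 became 0 and 14 changed sign. The order of density in MEF had 8 genes in another place with −log10 q of at least 5, and 2 each with fold enrichment minus 1, with bases in no other gene and over the 50% nearest the end. No paired analysis was possible because no condition had more than 1 library. Without replicates, and with read coverage outside peaks not analysed here, a gene body without a peak is known only to be below what this depth could call, and Ring1, Bmi1 and Pcgf5 rest on the fewest tags.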
